A study of Mus musculus with 6 samples.

Results

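Genes of mitochondrial fatty acid oxidation and ketone body metabolism were examined in mouse kidney, a set of 37 gene symbols chosen by name and covering fatty acid uptake, activation, the carnitine shuttle, each step of beta-oxidation and the handling of ketone bodies. All 37 were among the 46095 rows of the count table. The set, like the other lists below, was picked with earlier results of these data known. Its shares and medians beside those of all genes are therefore descriptive. Kidneys labelled DHT (dihydrotestosterone, an androgen that aromatase does not turn into oestrogen) gave 3 RNA sequencing libraries and kidneys labelled control gave 3. The labels put both groups on C57BL/6 and call the strain of both a PCOS (polycystic ovary syndrome) mouse. Age, dose, vehicle and length of treatment were not used here, as the labels give none of them. They also do not say that a group's libraries came from separate mice, and p-values then measure only how far these libraries spread, which may be technical. Depth was 15054763 to 19331942 counts per library, and levels are given as CPM (counts per 1000000, on TMM-scaled library sizes). Values of single libraries are listed in the order of replicates 1, 2 and 3. Values after ± are SD over 3 libraries for levels and SE for log2 fold changes, and a gene is called where edgeR's quasi-likelihood test gave a Benjamini-Hochberg adjusted p under 0.05 over all 15367 genes tested.

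Proximal tubule cells take up fatty acids and burn them as their main fuel. A fatty acid is activated to acyl-CoA, carried into the mitochondrion as acylcarnitine and shortened by cycles of dehydrogenation, hydration, dehydrogenation and thiolysis, while electron transfer flavoprotein passes the first electrons of each cycle to the respiratory chain. Malonyl-CoA, the product of acetyl-CoA carboxylase, blocks entry at carnitine palmitoyltransferase 1. Many of these genes are known targets of the nuclear receptor PPARA, which binds DNA with RXR at a direct repeat of half-sites. The classic androgen receptor element is instead an inverted repeat.

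Of the 37 genes, Mlycd and Acads rose in DHT kidneys, both by less than 2-fold, and 0 were called lower. Over all genes tested 2.84% were called, 1.38% higher and 1.46% lower. Mlycd encodes malonyl-CoA decarboxylase, which removes the inhibitor of carnitine palmitoyltransferase 1, and Acads encodes short chain acyl-CoA dehydrogenase. Acat1, Cpt2, Acsl1 and Acsl5 had groups that did not overlap and adjusted p values between 0.0515 and 0.0697, Acsl1 and Acsl5 with the lower values in DHT.

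All DHT libraries were above all control libraries in 12 of the 36 members tested, or 33.3%, and below them in 3, or 8.33%. Over all genes tested 29.8% had groups that did not overlap, 14.8% with DHT higher and 15% with DHT lower. The 12 were Mlycd, Cpt2, Acads, Acadl, Etfa, Etfb, Etfdh, Hadh, Echs1, Decr1, Acat1 and Acot13, which lie in the shuttle, the cycle, electron transfer and ketone metabolism and include 1 thioesterase. At an unadjusted p under 0.05, edgeR gave 12 members higher and 2 lower, against 12% of all genes in each direction. DESeq2's adjusted p gave 9 higher, namely Mlycd, Cpt2, Acads, Acadl, Etfa, Etfb, Decr1, Acat1 and Slc27a2, and 2 lower, Acsl1 and Acsl5, against 5.67% and 5.18% of all genes. The 36 members had a median log2 fold change of 0.23, against 0.00 over all genes tested, and 25 had a positive value and 11 a negative value. The positive share was 69.4%, against 50.3% of all genes tested.

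**Figure D1:**
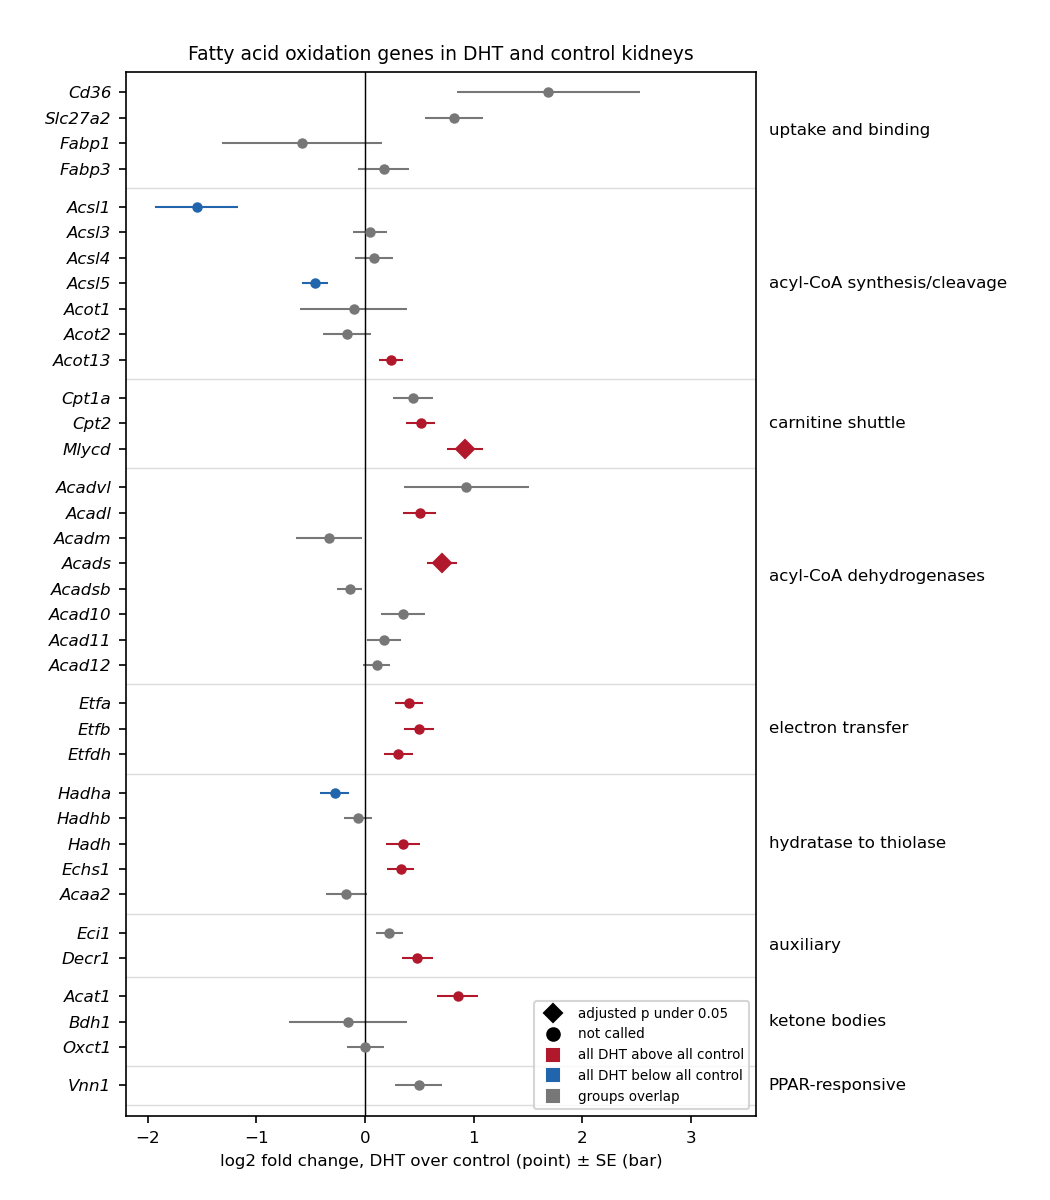
Log2 fold change of DHT over control (point) with its SE (bar) for the 36 members tested, grouped by role on the vertical axis; diamonds are called genes and colour tells whether all DHT libraries lie above (red) or below (blue) all controls on TMM-scaled CPM. Mlycd and Acads are the 2 diamonds, 12 genes are red and 3, Acsl1, Acsl5 and Hadha, are blue.

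The promoters of the called genes Mlycd and Acads, of Acsl1, which had the most negative log2 fold change of the set, and of Fabp1, which held the PPAR-type repeat, are shown because the treatment acts through a DNA-binding receptor. They are RefSeq sequences on GRCm38.p6, 5′ to 3′ on the gene's strand, from 250 bases before the annotated start up to the start or to the nearest annotated exon base. Capitals mark matches to the motifs searched on both strands: the nuclear receptor half-site AGGTCA, a direct repeat of AGGNCA with 1 base between the copies, the androgen receptor half-site AGAACA, and a full inverted repeat in which AGAACA is followed after 3 bases by TGTTCT. Mlycd (plus strand, chr8:119394644-119394877), Acads (minus strand, chr5:115119347-115119596), the upstream and the internal start of Acsl1 (plus strand, chr8:46470787-46471036 and chr8:46490716-46490965) and Fabp1 (plus strand, chr6:71199629-71199826) read:
Mlycd: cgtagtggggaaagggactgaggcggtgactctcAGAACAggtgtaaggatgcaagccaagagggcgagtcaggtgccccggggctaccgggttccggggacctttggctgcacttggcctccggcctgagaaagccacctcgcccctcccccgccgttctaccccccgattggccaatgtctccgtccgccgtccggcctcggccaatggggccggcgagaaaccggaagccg
Acads: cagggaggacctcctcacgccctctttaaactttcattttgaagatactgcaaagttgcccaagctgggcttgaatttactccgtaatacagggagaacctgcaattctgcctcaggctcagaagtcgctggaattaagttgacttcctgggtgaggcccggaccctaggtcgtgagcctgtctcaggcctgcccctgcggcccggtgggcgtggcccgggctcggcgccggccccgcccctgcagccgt
Acsl1 upstream start: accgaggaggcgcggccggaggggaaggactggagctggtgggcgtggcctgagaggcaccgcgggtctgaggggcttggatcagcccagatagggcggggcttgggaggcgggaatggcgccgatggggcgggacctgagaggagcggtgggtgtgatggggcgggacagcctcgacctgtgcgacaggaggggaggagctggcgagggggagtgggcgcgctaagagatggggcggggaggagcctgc
Acsl1 internal start: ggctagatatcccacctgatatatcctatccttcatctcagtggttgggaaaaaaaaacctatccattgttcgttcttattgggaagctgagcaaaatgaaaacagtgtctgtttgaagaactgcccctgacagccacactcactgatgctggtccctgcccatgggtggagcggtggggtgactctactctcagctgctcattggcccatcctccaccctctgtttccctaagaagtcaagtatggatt
Fabp1: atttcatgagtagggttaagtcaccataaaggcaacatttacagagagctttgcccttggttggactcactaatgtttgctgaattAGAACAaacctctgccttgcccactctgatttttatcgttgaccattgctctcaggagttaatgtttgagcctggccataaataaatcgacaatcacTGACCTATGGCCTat

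The Mlycd window held 1 androgen receptor half-site, 216 to 211 bases before the start, and the Acads window and both Acsl1 windows held no match to any of the 4 motifs. RefSeq promoters matched 31 of the 37 members; those of Vnn1, Acat1, Angptl4, Decr1, Acaa2 and Acot13 were not matched. Over the full 250 bases the androgen receptor half-site was in 5 of the 31, or 16.1%, against 18.2% of the 27025 genes with a promoter. The full inverted repeat was in 0 of the 31, against 0.0111% of all. The nuclear receptor half-site was in 7 of the 31, or 22.6%, against 15.8% of all. The direct repeat was in Fabp1 alone among the 31, 67 to 55 bases before the start, against 0.4% of all genes. It overlaps a nuclear receptor half-site in that promoter. These matches describe letters in a short window and say nothing of receptor binding.

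Levels were compared between genes per kilobase of the longest protein-coding transcript, as CPM per kilobase in control kidneys. Slc27a2, which imports and activates very long chain fatty acids, stood highest at 831 ± 180, followed by Acadm, the medium chain dehydrogenase, at 445 ± 169, and Oxct1, which lets tissues use ketone bodies, at 403 ± 27.3. Acadm and Oxct1 did not differ beyond their spread. Etfb at 322 ± 18.2, Hadh at 232 ± 32.8 and Etfa at 193 ± 8.96 came next. The fatty acid binding protein genes were near the other end, Fabp1 at 8.45 ± 4.20 and Fabp3 at 5.50 ± 0.731, with Acad12 at 8.02 ± 0.892 between them; Fabp1 and Acad12 did not differ beyond their spread.

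Acadvl and Angptl4 held very few counts, and so did most genes around Acadvl and the 4 coding genes that start within 100 kb of Angptl4 on its high-coordinate side. Acadvl, the very long chain dehydrogenase that opens the cycle (chromosome 11, 70010183 to 70015411, GRCm38), had 29, 50 and 87 counts in control and 51, 171 and 47 in DHT. Angptl4, an inhibitor of lipoprotein lipase and a PPAR target (chromosome 17, 33773750 to 33781830), had 2 counts in control replicate 1 and 0 in the other 5 libraries, and was the member not tested. Around Acadvl, 6 of 8 coding genes no more than 50 kb away were under 1 CPM, and the highest, Gabarap, an autophagy gene that nearly all cells use, stood at 4.08 CPM with 429 counts over 6 libraries. Near Angptl4, Rps28, a ribosomal protein gene, had 11 counts over 6 libraries, where the median of 30 Rps genes was 10555, and Ndufa7, a subunit of respiratory complex I, had 3. On its low-coordinate side Rab11b, a vesicle transport gene whose start is 21.3 kb from that of Angptl4, had 3687 counts, and farther out on the high-coordinate side Rps18, 174.2 kb away, had 3326. The counts of Acadvl and Angptl4 are therefore not read as their expression, and why these stretches hold few counts was not tested. Acadvl also shares 42.9% of its exonic bases with Dvl2 on the opposite strand. Without Acadvl and Angptl4, neither of which was called, 2 of 35 members were called higher and 0 lower, with a median log2 fold change of 0.22.

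**Figure D2:**
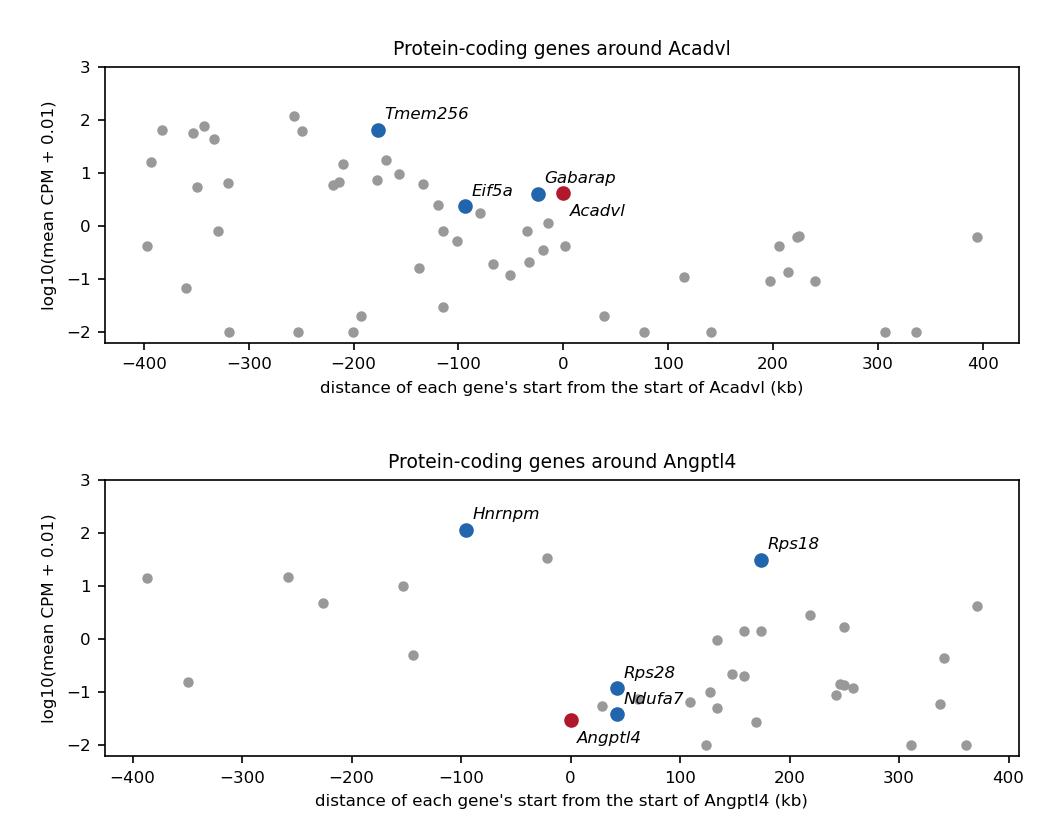
Mean level over 6 libraries, as log10(CPM + 0.01), of protein-coding genes against the distance of their start from that of Acadvl (upper panel) and Angptl4 (lower panel), in kb; red marks the member and blue the named genes. Gabarap lies near Acadvl at 4.08 CPM and Rps28 near Angptl4 at 0.111 CPM, while Tmem256 and Hnrnpm, farther off on the low-coordinate side, reach 66.3 and 117 CPM.

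In the carnitine shuttle, which controls entry into the mitochondrion, 1 of 3 members was called higher. Mlycd (chromosome 8, 119394878 to 119411102) stood at 38.9, 40.2 and 39.2 CPM in control and at 78.5, 56.2 and 88.9 CPM in DHT. The controls lay within 2 CPM of each other and every DHT library was above them. The log2 fold change was 0.92 ± 0.16 (edgeR adjusted p = 0.0345), a 1.89-fold difference. Cpt2, the inner membrane transferase that remakes acyl-CoA in the matrix, stood at 118, 140 and 108 CPM in control and at 180, 163 and 178 CPM in DHT. Its groups did not overlap, but the gene did not pass (log2 fold change 0.51 ± 0.13, edgeR adjusted p = 0.0693). Cpt1a, the outer membrane enzyme that malonyl-CoA inhibits, was at 439 ± 75.8 CPM in control and 595 ± 92.0 CPM in DHT, with overlapping groups (log2 fold change 0.44 ± 0.18, edgeR adjusted p = 0.191).

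Of the 8 acyl-CoA dehydrogenase genes, most of which are named for the chain length they oxidise, Acads was called. Acads (chromosome 5, 115110299 to 115119346) stood at 133, 144 and 140 CPM in control and at 242, 194 and 247 CPM in DHT. The groups did not overlap, and DHT replicate 2 lay nearest the controls. The log2 fold change was 0.71 ± 0.13 (edgeR adjusted p = 0.0376), a 1.64-fold difference. Acadl, the long chain enzyme, stood at 196, 275 and 241 CPM in control and at 353, 335 and 323 CPM in DHT, again without overlap (log2 fold change 0.50 ± 0.15, edgeR adjusted p = 0.101). Acadm, the most abundant dehydrogenase per kilobase, gave no such separation; its libraries are listed as a choice made after its values were seen. It stood at 516, 1063 and 1156 CPM in control and at 802, 569 and 805 CPM in DHT, so control replicate 1 was below every DHT library and the other controls above them (log2 fold change -0.33 ± 0.30, edgeR adjusted p = 0.538). Acadsb, which oxidises short branched chains from isoleucine, and the family members Acad10, Acad11 and Acad12 had log2 fold changes between -0.14 and 0.35, all with overlapping groups.

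The 3 genes of electron transfer, which carry electrons from every acyl-CoA dehydrogenase to ubiquinone, had higher levels in all DHT libraries than in any control, and 0 of 3 passed the test. Etfb stood at 279, 306 and 277 CPM in control and at 380, 381 and 459 CPM in DHT (log2 fold change 0.50 ± 0.14, edgeR adjusted p = 0.084). Etfa, the partner subunit, stood at 278, 274 and 255 CPM in control and at 385, 327 and 357 CPM in DHT (0.41 ± 0.13, adjusted p = 0.115). For both subunits the lowest DHT library was above the highest control. Etfdh, the membrane enzyme that receives their electrons, was at 194 ± 21.6 CPM in control and 240 ± 12.6 CPM in DHT (0.31 ± 0.13, edgeR adjusted p = 0.201). Etfb shares 70.1% of its transcript at 99.7% identity with the predicted gene Gm45233 on the same strand, so its value is uncertain.

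Among the 5 genes of the hydratase, hydroxyacyl dehydrogenase and thiolase steps, 0 were called. Hadh, the short chain hydroxyacyl-CoA dehydrogenase, stood at 456, 443 and 348 CPM in control and at 528, 506 and 554 CPM in DHT (log2 fold change 0.35 ± 0.15, edgeR adjusted p = 0.211). Echs1, the short chain hydratase, stood at 189, 197 and 199 CPM in control and at 240, 226 and 268 CPM in DHT (0.33 ± 0.12, adjusted p = 0.152). Neither pair of groups overlapped, with the higher levels in DHT. Hadha and Hadhb encode the subunits of the trifunctional protein, which handles long chains, and their starts face away from each other 86 bases apart on chromosome 5. Hadha was at 278 ± 10.1 CPM in control and 229 ± 24.0 CPM in DHT, lower in all DHT libraries than in any control (-0.28 ± 0.13, edgeR adjusted p = 0.238), and Hadhb at 105 ± 10.4 and 101 ± 10.7 CPM, with overlapping groups (-0.06 ± 0.13, adjusted p = 0.806). The ratio of Hadha to Hadhb CPM was 2.67 ± 0.362 in control and 2.29 ± 0.304 in DHT, a difference within the spread. Hadhb has near-identical copies, Gm13910 and Gm9108, over 69.7% and 69.6% of its transcript, so reads may have been split. Acaa2, the mitochondrial thiolase, was at 259 ± 47.8 CPM in control and 230 ± 42.6 CPM in DHT.

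The pair of auxiliary enzymes that prepare unsaturated fatty acids for the cycle held 0 calls. Decr1, the dienoyl-CoA reductase, stood at 194, 220 and 167 CPM in control and at 285, 274 and 252 CPM in DHT, without overlap (log2 fold change 0.48 ± 0.14, edgeR adjusted p = 0.0931). Eci1, the enoyl-CoA isomerase, stood at 65.9, 79.8 and 68.6 CPM in control and at 74.6, 85.8 and 89.7 CPM in DHT, with overlap (0.22 ± 0.12, adjusted p = 0.308).

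Among ketone body genes, Acat1 had closely spaced controls and missed the threshold narrowly, and 0 of 3 members were called. Acat1, which joins and splits acetoacetyl-CoA (chromosome 9, 53580522 to 53610382), stood at 447, 443 and 446 CPM in control and at 944, 604 and 864 CPM in DHT. The lowest DHT library, replicate 2, was still above every control (log2 fold change 0.85 ± 0.19, edgeR adjusted p = 0.0515). It passed with total counts (0.0481), with no low-count filter (0.013), with DESeq2 (0.000191) and without DHT replicate 2 (0.00777), as an adjusted p in each, and over all 14 alternatives its adjusted p ran from 0.000191 to 0.166. Bdh1, which interconverts the main ketone bodies, ranged widely among controls, at 46.7, 173 and 197 CPM in control, against 148, 79.4 and 146 CPM in DHT. Its DHT libraries all lay inside the control range (-0.16 ± 0.54, edgeR adjusted p = 0.882). Oxct1, the enzyme of ketone use, was at 1422 ± 96.1 CPM in control and 1425 ± 199 CPM in DHT (0.00 ± 0.17, adjusted p = 0.993).

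**Figure D3:**
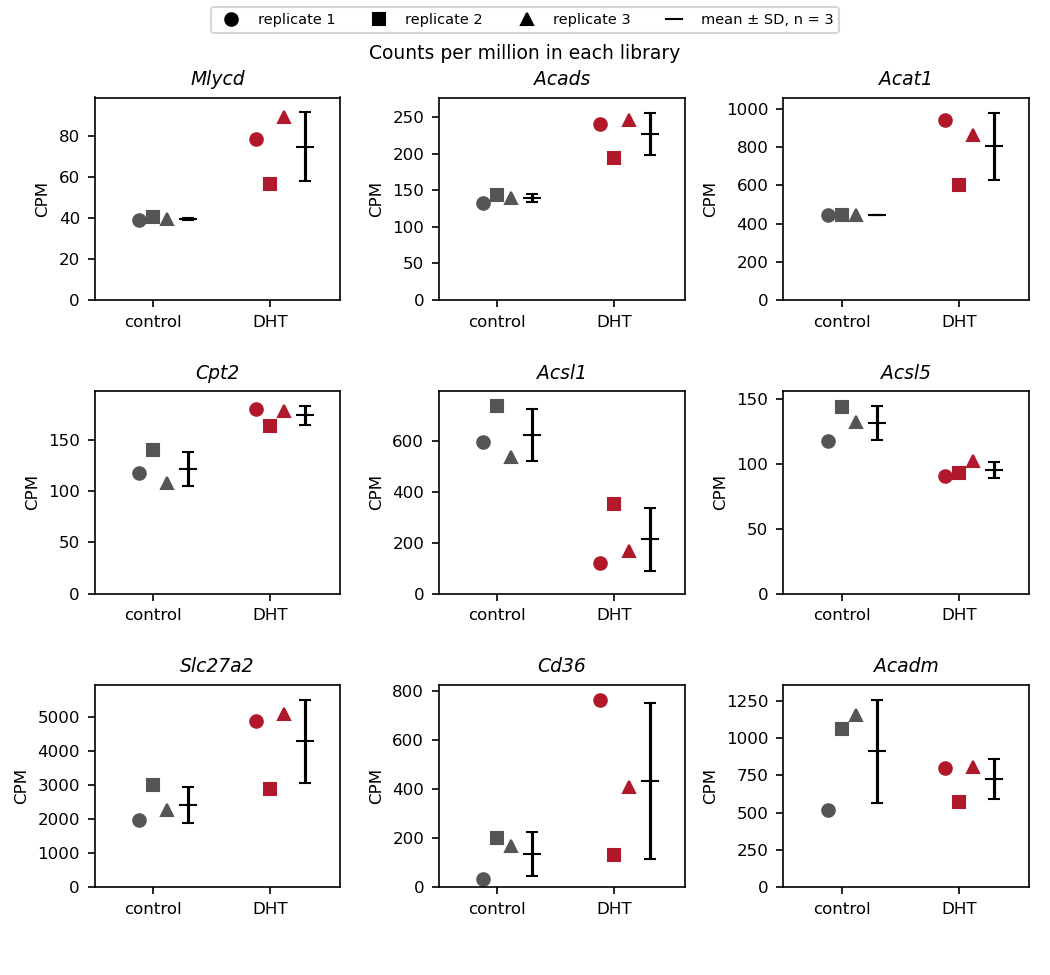
CPM in each library for 9 members, with replicates as symbols, controls in grey and DHT in red, and the mean ± SD (n = 3) beside them; the vertical axes start at 0. Mlycd, Acads, Acat1 and Cpt2 lie higher and Acsl1 and Acsl5 lower in every DHT library, whereas Slc27a2, Cd36 and Acadm overlap, and Acat1 controls lie between 443 and 447 CPM.

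Acyl-CoA synthetases, which activate long chain fatty acids, included the member with the most negative log2 fold change. Acsl1, the most abundant of them (chromosome 8, 46471037 to 46536051), stood at 596, 737 and 539 CPM in control and at 120, 352 and 167 CPM in DHT. No DHT library reached the lowest control, and DHT replicate 2 was the closest to it. The log2 fold change was -1.55 ± 0.38, a 2.93-fold difference, with an edgeR adjusted p of 0.0696. Without DHT replicate 2 the log2 fold change of Acsl1 was -2.13 and it was called (edgeR adjusted p = 0.00222), and over 14 alternatives the adjusted p ran from 0.000209 to 0.213. Acsl5 stood at 118, 144 and 132 CPM in control and at 90.4, 93.1 and 102 CPM in DHT, without overlap (-0.46 ± 0.12, edgeR adjusted p = 0.0697). Acsl3 and Acsl4, the latter preferring arachidonic acid, had overlapping groups and log2 fold changes of 0.04 ± 0.15 and 0.08 ± 0.17, which turned negative with total counts. Of the summed per-kilobase level of these 4 genes, Acsl1 made up 73.0% ± 1.32 in control and 48.8% ± 12.5 in DHT, at 37.8%, 62.5% and 46.3% in DHT replicates 1, 2 and 3. Each DHT share was below the lowest control share of 72.1%.

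The acyl-CoA thioesterases, which release free fatty acid again, held 0 calls of 3. Acot13 was at 92.0 ± 4.22 CPM in control and 109 ± 8.53 CPM in DHT, without overlap (log2 fold change 0.24 ± 0.11, edgeR adjusted p = 0.226). Acot1 and Acot2, cytosolic and mitochondrial forms lying next to each other on chromosome 12, match at 95.1% identity over 56.1% of the Acot1 transcript, so their counts are uncertain. Acot1 varied widely within each group, at 25.3 to 71.4 CPM in control and 25.9 to 73.9 CPM in DHT, and Acot2 lay between 14.0 and 26.1 CPM over all libraries.

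In fatty acid uptake and binding, 0 of 4 members were called, and the spread was wide. Slc27a2 stood at 1985, 3006 and 2283 CPM in control and at 4873, 2878 and 5102 CPM in DHT. DHT replicate 2 lay within the control range and the other DHT libraries well above it (log2 fold change 0.82 ± 0.27, edgeR adjusted p = 0.117). Without DHT replicate 2 the log2 fold change of Slc27a2 was 1.03 (edgeR adjusted p = 0.033), and over 14 alternatives the adjusted p ran from 0.0126 to 0.3. Cd36, the fatty acid translocase, stood at 32.6, 202 and 170 CPM in control and at 765, 132 and 407 CPM in DHT. It had the largest positive log2 fold change of the set, 1.69, with an SE of 0.84 and an edgeR adjusted p of 0.283. DHT replicate 2 was below 2 of the 3 controls, and without DHT replicate 1 the log2 fold change of Cd36 was 1.002. Fabp1 was at 7.32, 3.74 and 2.97 CPM in control and at 0.628, 6.51 and 2.20 CPM in DHT, and Fabp3 lay between 3.94 and 5.81 CPM in all libraries. The libraries of Fabp1 are listed because of its promoter and not by its p. Vnn1, a pantetheinase of the brush border and a PPARA target, was at 112, 93.8 and 61.9 CPM in control and at 118, 148 and 112 CPM in DHT, with control replicate 1 above the lowest DHT library by less than 1 CPM (0.49 ± 0.22, adjusted p = 0.21).

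By library, the median of 35 members (Acadvl left out), as log2(CPM + 0.5) minus the control mean, was -0.04, 0.10 and -0.05 in control and 0.27, 0.21 and 0.33 in DHT. Over all genes tested the same medians lay between -0.01 and 0.00. Among the 12 members higher in every DHT library, DHT replicate 2 was the DHT library nearest the controls in 9. The same share over all genes was not counted, so this is not shown to be particular to the members. On the first principal component of the whole table, with 46.8% of the variance, DHT replicate 2 stood between the groups at -13.9. There DHT replicates 1 and 3 lay at -45 and -46.6 and controls from 27.3 to 42.6. On the second component DHT replicate 2 lay at -34.6, near control replicate 1 at -29.1, and the other libraries from 9.4 to 24.5.

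**Figure D4:**
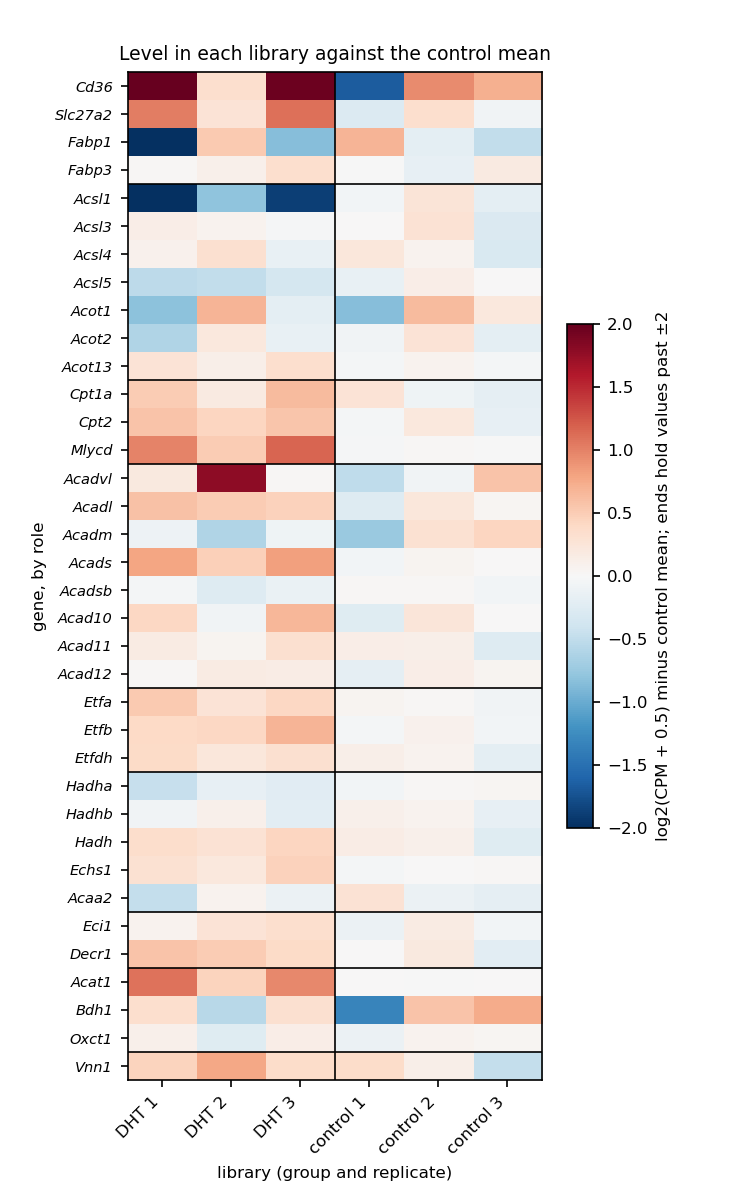
Level of each of the 36 members tested in each of the 6 libraries, as log2(CPM + 0.5) minus the mean of the 3 controls, with colours ending at ±2 and lines parting the roles and the groups. Acsl1 is blue and Mlycd, Acads and Acat1 are red in all 3 DHT columns, with paler colours in DHT replicate 2, and Bdh1 and Cd36 are blue in control replicate 1.

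Cell type markers were read beside these genes, since in bulk samples fewer cells of a type and less RNA per cell cannot be told apart. All 15 proximal tubule markers were present, with summed levels of 23114 to 31969 CPM in DHT and 20392 to 28066 CPM in control, which overlapped, and 0 were called by edgeR, with 2 higher and 1 lower both at an unadjusted p under 0.05 and by DESeq2's adjusted p. Loop of Henle and distal tubule markers summed to 6241 to 7242 CPM in DHT and to 7996, 8752 and 12912 CPM in control, without overlap and highest in control replicate 3. By edgeR 0 of 7 were called, with 1 lower both at an unadjusted p under 0.05 and by DESeq2. The median log2 fold change of the 7 was -0.41, and 6 were negative, where 50.3% of all genes tested were positive. Over all genes 12% passed the unadjusted p in each direction, and 5.67% were higher and 5.18% lower by DESeq2. Other cell types gave small sums that mostly overlapped. Macrophage markers summed to 117 to 398 CPM in DHT, highest in replicate 2, and 117 to 245 CPM in control. Of these 8 markers 7 had a positive log2 fold change, against 50.3% of all genes tested, with a median of 0.66. By edgeR 0 were called, with 2 higher at an unadjusted p under 0.05 and 1 higher by DESeq2. Endothelial markers summed to 381 to 732 CPM in DHT, again highest in replicate 2, and 429 to 513 CPM in control. Fat cells also express Cd36 and Acsl1. Their markers summed to 33.0 to 119 CPM in DHT and 33.5 to 86.3 CPM in control, mostly from Fabp4, a gene of endothelium too. Control replicate 2 stood apart in the other fat cell genes: Cfd reached 12.04, Ucp1 4.82, Cidea 3.48, Adipoq 2.85 and Plin1 2.28 CPM there. In control replicate 3 Cfd was at 1.29 CPM, and otherwise these 5 genes were under 0.5 CPM in every library. Cidea was lower in every DHT library than in any control. Heart and skeletal muscle markers summed to under 3 CPM in every library, 1.07 to 1.72 CPM in DHT and 2.18 to 2.95 CPM in control, with Myl2 at 0 in all. Adrenal markers summed to 0.712 to 2.44 CPM in DHT and to 2.46, 3.37 and 9.10 CPM in control, with 3 of 6 at 0. Cyp11a1 stood at 6.33 CPM in control replicate 3, at 0.311 CPM in control replicate 2 and at 0 in the other libraries. Summed markers of collecting duct, podocytes, liver and red blood cells overlapped between the groups. Among liver markers Serpina1a was higher in every DHT library than in any control, at 7.16, 40.6 and 11.98 CPM in DHT against 2.77 to 3.79 CPM in the controls (2.55 on the log2 scale, edgeR adjusted p = 0.0852), and Fgb was lower in every DHT library, at 1.26 to 4.89 CPM against 5.84 to 8.35 CPM in control (-1.20, adjusted p = 0.144). These single markers were named after their values were seen. The part of these markers in the results was not tested.

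Other genes of the pathway, 93 in 4 lists, gave 3 calls higher and 1 lower among 84 tested, with a median log2 fold change of 0.21. The peroxisome shortens very long chains before mitochondria take over, and its list had 2 of 22 called higher and 0 lower, against 1.38% and 1.46% of all genes. The groups of 9 did not overlap with DHT higher and of 0 with DHT lower. At an unadjusted p under 0.05 by edgeR 9 were higher and 0 lower, and by DESeq2's adjusted p 8 were higher and 0 lower. The same shares over all genes were 14.8% and 15% for groups without overlap, 12% each way unadjusted, and 5.67% and 5.18% by DESeq2. Acot12, a cytosolic thioesterase in this list, is among the 9 without overlap and the 9 higher at an unadjusted p. Acaa1a, a peroxisomal thiolase, rose, at 84.1 ± 7.44 CPM in control and 121 ± 1.87 CPM in DHT (edgeR log2 fold change 0.53 ± 0.11, adjusted p = 0.0465). Eci2, an isomerase shared by peroxisomes and mitochondria, rose as well, at 64.4 ± 5.20 and 131 ± 18.5 CPM (edgeR log2 fold change 1.03 ± 0.14, adjusted p = 0.0162). Acaa1b, a relative of Acaa1a named after its values were seen, stood at 216, 279 and 210 CPM in control. In DHT it stood at 190, 553 and 200 CPM, with overlap (edgeR adjusted p = 0.577). Near-identical copies were not searched for these genes. Pex11a, which drives peroxisome division and is a PPARA target, was at 46.6 ± 6.56 CPM in control and 69.5 ± 4.32 CPM in DHT, without overlap (0.58 ± 0.13, edgeR adjusted p = 0.0546).

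Of 29 other mitochondrial, carnitine and ketone genes tested, 0 were called, with 12 higher and 2 lower at an unadjusted p under 0.05 by edgeR and 7 higher and 1 lower by DESeq2's adjusted p. The groups of 13 did not overlap with DHT higher and of 3 with DHT lower. The list is mixed, as it also holds Nudt7 and Nudt19, hydrolases that act in peroxisomes. Both are among these 13, and Nudt19 is also among the 12 higher at an unadjusted p. Over all genes these shares were 12% in each direction for the unadjusted p, 5.67% and 5.18% for DESeq2, and 14.8% and 15% for groups that did not overlap. Slc25a20, the carnitine-acylcarnitine carrier between Cpt1a and Cpt2, was at 51.6 ± 3.87 CPM in control and 67.5 ± 2.44 CPM in DHT (log2 fold change 0.39 ± 0.11, edgeR adjusted p = 0.0774). Aldh9a1, an enzyme of carnitine synthesis, was at 358 ± 36.4 and 532 ± 29.3 CPM (0.57 ± 0.14, adjusted p = 0.0654), and Acot9, a mitochondrial thioesterase, at 37.5 ± 3.94 and 86.3 ± 35.0 CPM (1.20 ± 0.30, adjusted p = 0.0716).

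Among 18 PPAR and PGC1 regulators and targets tested, Plin2 was called higher and Ppargc1a lower. Plin2, the lipid droplet coat protein and a PPAR target, stood at 60.4 ± 2.74 CPM in control and 109 ± 5.62 CPM in DHT, with a log2 fold change of 0.85 ± 0.11 (edgeR adjusted p = 0.0142). Ppargc1a, the coactivator that raises oxidation genes, fell, at 123 ± 5.10 CPM in control and 85.5 ± 7.62 CPM in DHT (-0.53 ± 0.11, edgeR adjusted p = 0.0491). Its relative Ppargc1b was at 33.7 ± 2.88 and 22.0 ± 3.42 CPM (-0.62 ± 0.15, adjusted p = 0.0595). Ppara itself was at 187, 129 and 92.6 CPM in control and at 139, 169 and 201 CPM in DHT, with overlap, and was named after its values were seen. Over the 18 genes of this list 12 had a positive log2 fold change, against 50.3% of all genes tested, and the median was 0.18. The groups of 3 did not overlap with DHT higher and of 2 with DHT lower, near the shares of 14.8% and 15% over all genes.

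The calls of Mlycd and Acads changed with single libraries. Leaving out any single library but DHT replicate 2 ended both, with edgeR adjusted p between 0.0544 and 0.132 for Mlycd and 0.0749 and 0.14 for Acads, although their log2 fold changes stayed between 0.77 and 0.93 and between 0.65 and 0.73. Without DHT replicate 2 both were called (adjusted p = 0.00273 and 0.00951), and Acat1 and Slc27a2 with them. The call of Acaa1a was lost without any library but DHT replicate 2 (edgeR adjusted p 0.0715 to 0.17), and that of Ppargc1a without any library (0.0519 to 0.151). Acaa1a also lost its call with total counts (edgeR adjusted p = 0.126) and with limma-voom (0.0502), and Ppargc1a with limma-voom (0.055) and with no robust step (edgeR adjusted p = 0.0501). All 4 calls among other pathway genes were lost with the replicate block. Those of Eci2 and Plin2 were lost on leaving out DHT replicate 1 or 3 or the second control, with edgeR adjusted p of 0.0646, 0.0943 and 0.0782 for Eci2 and 0.0543, 0.0943 and 0.0793 for Plin2.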

How the data were processed

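Kidney RNA was extracted with Trizol and made into Illumina mRNA libraries, per the labels. The authors deposited raw counts per gene symbol, whole numbers with no normalization; the submitters' processing notes name HISAT2 2.0 and mm10. Counting tool, annotation, strand setting and the rule for reads with several matches were not among the sources used here. Columns were matched to samples by title.

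The deposited counts went into edgeR 4.0.16 (R 4.3.3) with filterByExpr (minimum count 10, minimum total 15), TMM scaling, a robust quasi-likelihood fit with group as its single term, and Benjamini-Hochberg adjustment over 15367 genes at 0.05. SE is what the F statistic implies. Depth was 15054763 to 19331942 counts. Alternatives were DESeq2 1.42.0, limma-voom (limma 3.58.1), other scalings and filters, a fit without the robust step, a replicate block, and leaving out each library. Code was tested on simulated counts.

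Positions and lengths came from GENCODE M21 on GRCm38, the assembly behind mm10, and promoters from RefSeq, GRCm38.p6. Near-identical copies are transcripts matching at least 50% of the longest coding transcript at 95% identity or more (BLAST). Reads of overlapping genes cannot be told apart, as strand use is unknown. Members and lists were chosen with earlier results of these data known. The rule for named genes gave values in every library for called members and up to 2 members with the smallest p in each role, and of other lists named called genes and up to 3 by smallest p; for genes listed outside it the text gives the reason or says that their values had been seen.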

Additional observations from a re-analysis of the deposited data

How the results depend on the processing

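Against 437 genes called over the whole table, 852 were called with no low-count filter, 1634 with DESeq2 and 85 with the replicate block. Members called higher, 2 in the reported fit, numbered 9 with DESeq2 (Mlycd and Acads among them) and 0 with the replicate block, and members called lower, 0 as reported, numbered 2 with DESeq2. Other pathway genes called higher, 3 as reported, numbered 7 with no low-count filter, 20 with DESeq2, 5 with no robust step, 2 with total counts, 2 with limma-voom and 0 with the replicate block; those called lower, 1 as reported, numbered 2 with total counts, 4 with no low-count filter, 8 with DESeq2 and 0 with limma-voom. With no robust step and with the replicate block that count was again 1, but the gene was Elovl6 (edgeR adjusted p = 0.0409 and 0.045) and no longer Ppargc1a (0.0501 and 0.0969). Leaving out 1 library gave 0 to 1224 calls over the whole table, 0 to 4 members higher and 0 to 1 lower, and 0 to 17 other pathway genes higher and 0 to 5 lower. Calls over all genes numbered 19, 1224 and 0 on omitting DHT replicate 1, 2 or 3, and 366, 7 and 89 on omitting control replicate 1, 2 or 3. Members called higher numbered 4 without DHT replicate 2 and 0 without any other single library. The cause was not tested.

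Scaling by total counts moved the median log2 fold change of all genes by -0.104 and that of the members to 0.13 from 0.23, changed the signs of Acsl3, Acsl4 and Oxct1, and gave 13 members higher and 4 lower without overlap (9.72% and 18.9% of all genes). Of all calls, 38.8% were then higher, against 48.5% as reported. Of the 36 members tested, 22 then had a positive log2 fold change, against 25 as reported. The sign of Bdh1 turned with limma-voom (0.052), and its log2 fold changes without single libraries ran from -0.58 to 0.17, positive without DHT replicate 2 (0.07), control replicate 2 (0.03) or control replicate 3 (0.17). Mlycd and Acads lost their calls with the replicate block (edgeR adjusted p = 0.079 and 0.094) and without any library but DHT replicate 2, and kept them in the other 8 alternatives. Same-numbered libraries correlated in their deviations from the group means at 0.07, -0.15 and 0.04 for numbers 1, 2 and 3, so the numbers were not taken as pairs, and not every library correlated best with its own number. Leaving out Acadvl and Angptl4, an alternative chosen after seeing the data, could not move the counts of called members. Acadvl was not called and Angptl4 was not tested.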

Other observations

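Genes of fatty acid synthesis lay mostly on the other side of 0: of 15 tested, 11 had negative log2 fold changes, and the median was -0.36. Over all genes tested 50.3% were positive. By library, the median as log2(CPM + 0.5) minus the control mean was -0.08, 0.20 and -0.12 in control and -0.36, -0.33 and -0.36 in DHT. In control replicate 2, which stood apart in fat cell genes, 14 of the 15 were above the control mean, against 4 and 5 in control replicates 1 and 3. The part of that library was not tested. By edgeR 0 were called, with 3 higher and 6 lower at an unadjusted p under 0.05. DESeq2's adjusted p gave 3 higher and 5 lower. Over all genes these shares were 12% in each direction for the unadjusted p and 5.67% and 5.18% for DESeq2. Scd1, named after its values were seen, had the most negative log2 fold change, -2.41, with overlapping groups (edgeR adjusted p = 0.133). It stood at 288, 2506 and 1251 CPM in control and at 150, 277 and 332 CPM in DHT. Elovl6, which lengthens palmitate, stood at 53.7, 115 and 103 CPM in control and at 25.9, 41.9 and 27.6 CPM in DHT, without overlap (log2 fold change -1.51 ± 0.31, edgeR adjusted p = 0.0527). Fads2, a desaturase of polyunsaturated fatty acids, was at 123 ± 20.4 CPM in control and 83.8 ± 8.55 CPM in DHT (-0.55 ± 0.15, adjusted p = 0.0735). Dgat2, which makes triglyceride, was on the higher side, at 113 ± 15.1 and 178 ± 31.9 CPM (0.65 ± 0.16, adjusted p = 0.0667).

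The largest log2 fold change among the other pathway genes belonged to Nudt19, a hydrolase of coenzyme A and acyl-CoA in kidney peroxisomes and long known as an androgen-responsive kidney mRNA; it was singled out after its values were seen. Nudt19 stood at 135, 312 and 249 CPM in control and at 2033, 364 and 1935 CPM in DHT, so that DHT replicate 2 lay just above the controls and the other DHT libraries far above (log2 fold change 2.64 ± 0.69, edgeR adjusted p = 0.0892). Amacr, a racemase of branched chain acyl-CoA also singled out in this way, stood at 77.8, 87.4 and 69.2 CPM in control and at 513, 131 and 416 CPM in DHT (2.18 ± 0.47, adjusted p = 0.0606).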
